A study of Mus musculus with 15 samples.

Results

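The genes described here are 31 chains of the cell-matrix adhesion system, 21 integrin chains (13 α and 8 β) and 10 laminin chains (5 α, 3 β and 2 γ), taken by gene symbol from the 35880 genes of the expression table. They were measured by RNA sequencing in 5 lines of LL2, a mouse Lewis lung carcinoma line (labelled LL2/Luc2), with 3 biologic replicates a line. LL2 WT was the parental line. *KEAP1* KO #1, #2 and #3 were each 1 clone grown from a CRISPR-edited LL2 cell that had lost KEAP1, the protein that marks the transcription factor NRF2 for degradation, and *NRF2* KO was 1 clone edited in *Nfe2l2*, the gene of NRF2. All lines were grown in the same serum-containing medium with no treatment, so a difference between lines holds the edit and the history of the clone together, and these cannot be told apart.

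Integrins are receptors made of 1 α and 1 β chain, and neither chain reaches the cell surface alone. The α chain largely sets the ligand. The chains α3, α6 and α7 bind laminin, α1, α2, α10 and α11 bind collagen, and α5, α8, αv and αIIb read the Arg-Gly-Asp motif of fibronectin, vitronectin, fibrinogen and related proteins. Laminins are the main adhesive proteins of basement membranes and are secreted as trimers of 1 α, 1 β and 1 γ chain, so that laminin-511 consists of α5, β1 and γ1.

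A gene was tested where its CPM, the share of reads scaled to a common library total, summed to at least 3 over the 15 samples, which kept 23 of the 31 members. *Itga2*, *Itgb8* and *Lamc3* summed to 9.72, 6.14 and 4.27 CPM, and to under 3 without the lines in which they were called higher than LL2 WT. Their passing of the filter is therefore not independent of those calls, or of calls of the same lines against other lines. A call needs an adjusted p under 0.05 and a fold change over 2 in limma, fitted on log2(CPM + 0.1), a scale that understates the change of low genes. All fold changes and p-values below come from that fit unless a bound is named, and the 4 comparisons with LL2 WT share its 3 samples. At the average depth of the study, 0.1 CPM stands for about 3 reads, so a group with every sample at or under it gives only a bound on the fold.

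*Nqo1*, a canonical NRF2 target, had a mean of 30.3 CPM in LL2 WT, 476, 276 and 488 CPM in the *KEAP1* KO clones and 9.82 CPM in *NRF2* KO. *Keap1* was called lower in *KEAP1* KO #2 and #3, at 5.53 and 5.58 CPM against 23 in LL2 WT. In *KEAP1* KO #1 it was at 11.8 CPM, and the log2 difference of -0.95 (adjusted p = 0.00668) missed the fold threshold. *Nfe2l2* was at 119 CPM in *NRF2* KO and 96.4, 123 and 116 in *KEAP1* KO #1, #2 and #3 against 186 in LL2 WT, so its RNA level did not set *NRF2* KO apart. The study checked the knockouts by Western blot and genomic sequencing. The libraries numbered 3 deviated from their line means together: over 11676 genes the median correlation between lines was 0.461 for replicate 3, 0.274 for replicate 2 and 0.057 for replicate 1. Replicate 3 was the highest library of all 5 lines for 9 of the 23 tested members (39.1%), *Itga2*, *Itga6*, *Itga7*, *Itga9*, *Itgav*, *Itgb3*, *Lamb1*, *Lamb2* and *Lamc1*, and for 20.5% of all tested genes. Values without the libraries numbered 3, an alternative chosen after the data were seen, are therefore given beside the results they change. Lung epithelial markers were split, with *Krt8* and *Krt18* expressed and *Epcam*, *Cdh1*, *Nkx2-1* and *Scgb1a1* at or under 0.1 CPM in every sample.

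The proximal promoter is shown for 3 of the members called in at least 1 *KEAP1* KO clone against LL2 WT, *Itgb7* and *Itga2*, which were called higher in #2 and #3, and *Itgb8*, which was called higher in #1 and lower in #2. *Itgb1*, the shared β chain, is shown as a member that was called in no comparison. Each line holds the 250 bases before a start of transcription in RefSeq on GRCm38.p6, 5′ to 3′, and capitals mark a match to a searched motif. In GENCODE, used here for gene coordinates, *Itgb8* begins further upstream, at 119238802. By that annotation the stretch shown for it lies inside the gene.
Itgb7 (chr15:102231936-102232185, - strand): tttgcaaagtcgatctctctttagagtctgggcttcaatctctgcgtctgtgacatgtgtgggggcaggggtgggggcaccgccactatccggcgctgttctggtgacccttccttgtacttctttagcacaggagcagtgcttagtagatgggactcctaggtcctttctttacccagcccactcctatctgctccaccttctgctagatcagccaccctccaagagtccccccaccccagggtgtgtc
Itga2 (chr13:114932101-114932350, - strand): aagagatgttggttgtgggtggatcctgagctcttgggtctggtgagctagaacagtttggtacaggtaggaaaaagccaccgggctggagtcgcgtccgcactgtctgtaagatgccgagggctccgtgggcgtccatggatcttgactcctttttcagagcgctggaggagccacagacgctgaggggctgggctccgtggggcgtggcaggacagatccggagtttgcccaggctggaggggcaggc
Itgb8 (chr12:119238277-119238526, - strand): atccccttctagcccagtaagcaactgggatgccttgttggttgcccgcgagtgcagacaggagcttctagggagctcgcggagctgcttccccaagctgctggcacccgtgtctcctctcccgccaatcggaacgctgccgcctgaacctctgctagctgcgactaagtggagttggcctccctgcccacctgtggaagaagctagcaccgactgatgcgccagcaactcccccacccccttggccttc
Itgb1 (chr8:128685404-128685653, + strand): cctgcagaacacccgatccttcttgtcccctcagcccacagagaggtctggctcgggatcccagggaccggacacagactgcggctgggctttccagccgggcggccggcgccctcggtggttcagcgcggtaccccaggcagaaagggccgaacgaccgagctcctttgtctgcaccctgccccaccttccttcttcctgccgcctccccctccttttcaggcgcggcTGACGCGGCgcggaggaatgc

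The motifs searched were the core of the antioxidant response element, the site NRF2 binds (TGACNNNGC), and the AP-1 element (TGANTCA), on both strands, from 250 bases before to 50 after each start. The 2 motifs can overlap in 1 stretch of DNA. A promoter was found for 21 of the 31 members and for 6 of the 9 that were called in any comparison, *Itga2*, *Itga5*, *Itgb7*, *Itgb8*, *Lamb1* and *Lamb2*. None of these 6 held either motif. The other 3 called members, *Itgb2*, *Itgb3* and *Lamc3*, had no promoter available and were not searched. Among them are both members called in all 3 *KEAP1* KO clones. The response element core was present in 3 members that were not called, *Itgb1*, *Itga9* and *Itgb6*, and in 12.4% of all 32851 promoters. The AP-1 letters were present in 2 members, *Itga9* and *Itga3*, and in 7.81% of all promoters. The *Itga9* stretch (chr9:118711442-118711741) lies far inside the gene by GENCODE, where it begins at 118606690. The *Itga3* match was at an inner start of that gene (chr11:95069149-95069448).

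Among the receptors, β1, β7 and α6 were the main chains. On the scale of CPM per kb of mean transcript length, *Itgb1*, the β chain shared by most matrix receptors, had a level of 145 ± 33.6 in LL2 WT (SD, n = 3), and *Itga6*, the α chain of the laminin receptors, 107 ± 49.6. *Itgb7* reached 143 ± 37.0, so the order of β1 and β7 was within the spread between samples. In *KEAP1* KO #2 and #3 *Itgb7* was the highest chain, at 443 ± 48.4 and 425 ± 39.7 CPM per kb against 134 ± 5.49 and 128 ± 3.05 for *Itgb1*, and also by the longest transcript, at 144 and 138 against 71.0 and 67.9. By the longest transcript of each gene the levels in LL2 WT were 76.9 for *Itgb1*, 55.7 for *Itga6* and 46.4 for *Itgb7*. The next α chains in LL2 WT were *Itgav* at 22.0 ± 3.12, *Itga3* at 17.3 ± 1.28 and *Itga5* at 11.9 ± 1.49 CPM per kb, and *Itgav* and *Itga3* changed places by the longest transcript. In all, 10 of the 21 integrin chains lay above 1 CPM per kb in LL2 WT.

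A receptor pair was given the level of its lower chain, as a description with no test. The laminin receptor α6β1 was the highest pair in every line, at 107 ± 49.6 CPM per kb in LL2 WT, 46.8 ± 11.5 in *KEAP1* KO #1, 74.2 ± 23.1 in #2, 72.6 ± 19.0 in #3 and 75.8 ± 41.8 in *NRF2* KO. The samples of *KEAP1* KO #1 lay below those of LL2 WT and of #3, and all other lines overlapped. The vitronectin receptor αvβ5 was limited by αv and ranged from 13.4 ± 2.1 in *KEAP1* KO #1 to 22.0 ± 3.12 in LL2 WT. The laminin receptor α3β1 was at 17.3 ± 1.28 in LL2 WT and 9.22 ± 2.96, 14.7 ± 4.26 and 10.7 ± 3.26 in *KEAP1* KO #1, #2 and #3.

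The fibronectin receptor α5β1 had a different order, with 19.4 ± 0.452 in *KEAP1* KO #2 and 16.5 ± 0.687 in #3 above 11.9 ± 1.49 in LL2 WT and 9.26 ± 1.28 in *KEAP1* KO #1. The hemidesmosome receptor α6β4, limited by β4, stayed between 0.108 and 0.420 CPM per kb. The collagen receptors were low, with α1β1 between 0.674 and 1.02 and α2β1 between 0.0367 and 0.337 CPM per kb. No line had a pair of α4 with β1 or β7 above 0.0456 CPM per kb.

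**Figure D1:**
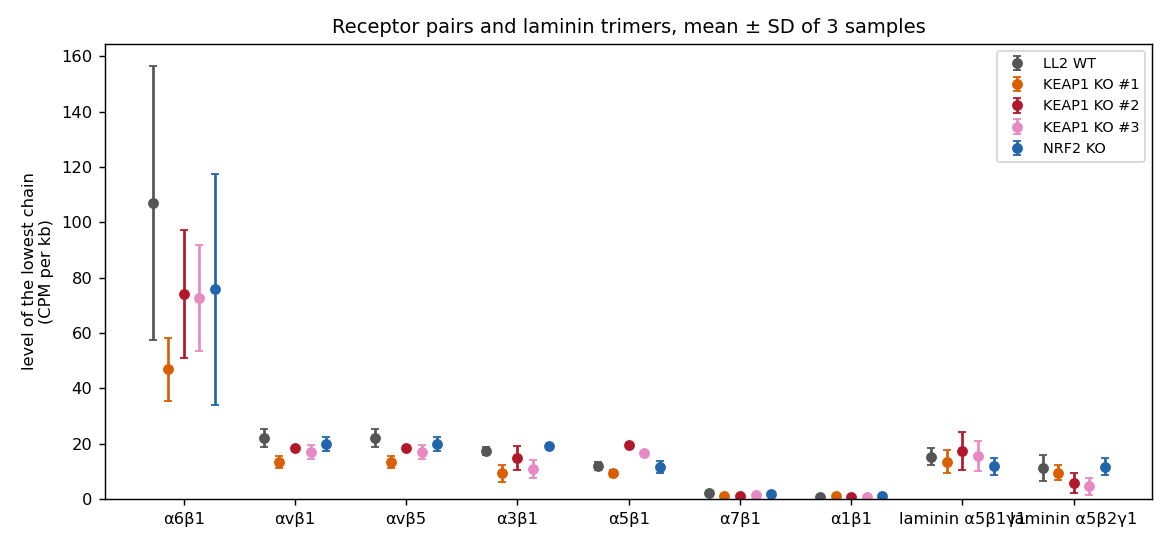
Level of the lowest chain of each receptor pair and laminin trimer, in CPM per kb of mean transcript length, as the mean ± SD of the 3 samples of each line. α6β1 is the highest pair in every line, and α5β1 is higher in *KEAP1* KO #2 and #3 (19.4 and 16.5) than in the other lines.

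Against LL2 WT, *KEAP1* KO #1 had 2 of 23 tested members called higher, where 4.55% of all tested genes were, and 1 called lower, where 3.99% were. *KEAP1* KO #2 had 3 called higher (5.94% of all tested genes) and 2 called lower (7.75%). *KEAP1* KO #3 had 3 called higher (6.09%) and 3 called lower (7.34%). In *NRF2* KO there were 0 called in limma, and 3 members with an unadjusted p under 0.05, where 0.0887% of all tested genes were called higher and 0.375% lower. The median log2 difference of the members was -0.15, -0.27 and -0.38 in *KEAP1* KO #1, #2 and #3 and -0.05 in *NRF2* KO, against 0.11, 0.03, 0.02 and 0.04 for all tested genes, and the medians were the same with members at their bounds. Only *Itgb3* and *Lamc3* were called in all 3 *KEAP1* KO clones, and the bound of *Lamc3* in #1 was 1.82-fold, under the fold threshold. Without the libraries numbered 3 the counts of members called were 3, 7 and 8 in *KEAP1* KO #1, #2 and #3 and 0 in *NRF2* KO. At a pseudocount of 0.5 CPM, the calls of *Itgb3* in all 3 clones, of *Itgb8* in #1 and #2 and of *Lamc3* in #1 and #3 against LL2 WT were lost because the log2 difference shrank to between -0.89 and 0.90, and with only the lines compared in the fit those of *Itgb3* in all 3 clones, and of *Itgb8* and *Lamc3* in #1 and *Lamb2* in #3, were lost (adjusted p = 0.0528 to 0.182). Rescaling the samples by their median ratio shifted the all-gene median of *KEAP1* KO #1, which was 0.11, to 0.01, and the split of its calls over all genes from 667 higher and 584 lower to 553 and 724. The members of #1 went from 2 called higher and 1 lower to 1 higher and 3 lower under that rescaling and under quantile normalization.

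All 9 *KEAP1* KO samples lay above every LL2 WT sample for 3 of the 23 members, *Itgb2*, *Lamc1* and *Lamc3*, and for 12.9% of all tested genes. They lay below every LL2 WT sample for 2 members, *Itgb3* and *Lamb1*, and for 7.69% of all tested genes.

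**Figure D2:**
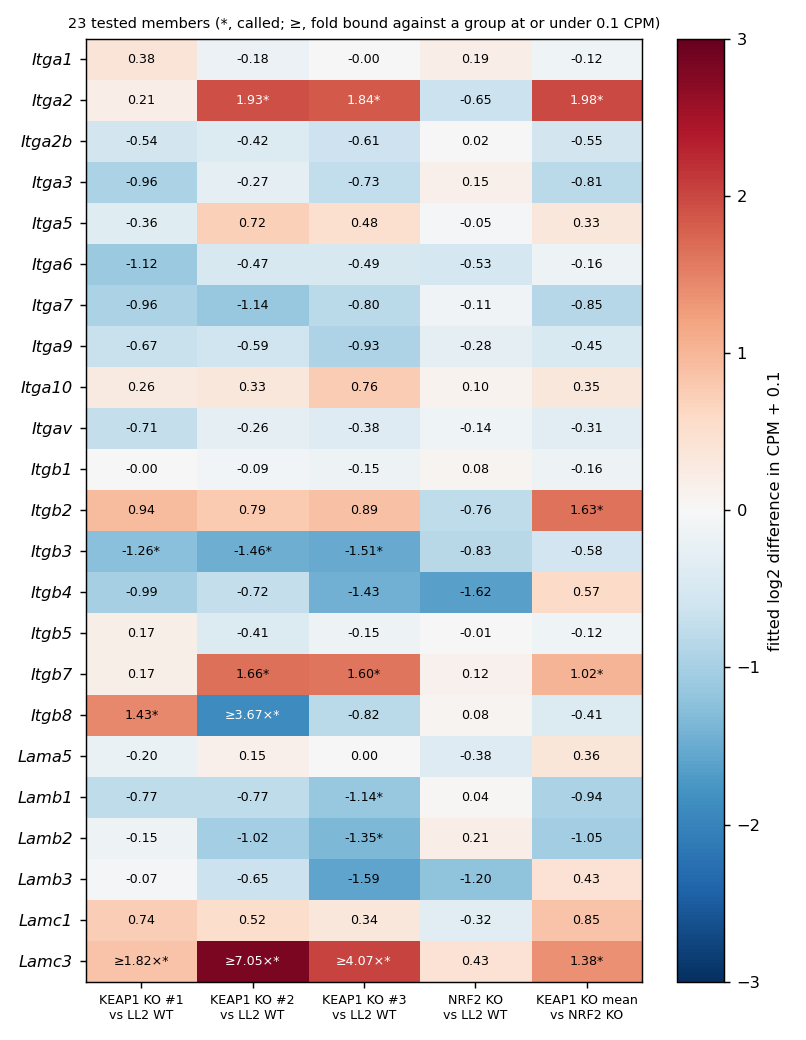
Fitted log2 differences of the 23 tested members in 5 comparisons, with red higher and blue lower in the line named first, an asterisk for a call, and a fold bound where 1 group lay at or under 0.1 CPM. *Itgb3* and *Lamc3* carry an asterisk in all 3 *KEAP1* KO clones, and the *NRF2* KO column against LL2 WT carries none.

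*Itgb7*, the β chain of the lymphocyte receptors α4β7 and αEβ7, was called higher in *KEAP1* KO #2 and #3. Its CPM was 142, 145 and 87.4 in LL2 WT, 102, 155 and 162 in *KEAP1* KO #1, 404, 415 and 337 in #2, 381, 397 and 331 in #3 and 128, 145 and 124 in *NRF2* KO. Every sample of *KEAP1* KO #2 and #3 lay above every sample of the other 3 lines, which overlapped with each other. Against LL2 WT the log2 difference was 1.66 ± 0.20 (SE, adjusted p = 5.39e-05) in *KEAP1* KO #2 and 1.60 ± 0.20 (adjusted p = 6.69e-05) in #3, and 0.17 ± 0.20 (adjusted p = 0.580) in #1. *KEAP1* KO #1 differed from #2 by -1.49 (adjusted p = 0.000515) and from #3 by -1.43 (adjusted p = 0.000706), and these 4 calls held under every alternative tried. *Itgb7* lies at chr15:102215995-102231944 on the minus strand (GRCm38), with no exon shared with another gene.

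The α partners of β7 were close to the detection limit. *Itga4*, the α4 chain, had line means between 0.0727 and 0.168 CPM and did not pass the filter on low values, and *Itgae*, the αE chain that is not a member, had line means between 0.165 and 0.301 CPM. Neither set *KEAP1* KO #2 and #3 apart, and the highest *Itga4* samples were 0.279 CPM in *KEAP1* KO #1 and 0.295 CPM in #3.

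*Itgb2*, the β chain of the leukocyte integrins, was the other β chain expressed without a partner at a like level. Its CPM was 16.3, 11.9 and 13.2 in LL2 WT, 18.1, 27.5 and 36.6 in *KEAP1* KO #1, 20.5, 19.7 and 32.9 in #2, 21.2, 23.5 and 33.1 in #3 and 8.75, 6.11 and 9.75 in *NRF2* KO. All 9 *KEAP1* KO samples lay above all LL2 WT samples, and all *NRF2* KO samples lay below them. The log2 differences from LL2 WT were 0.94, 0.79 and 0.89 ± 0.28 in *KEAP1* KO #1, #2 and #3 (adjusted p = 0.0293, 0.0481 and 0.0286), under the fold threshold, and without the libraries numbered 3 they were 0.68, 0.53 and 0.68 (adjusted p = 0.0691, 0.117 and 0.0538). Against *NRF2* KO the mean of the *KEAP1* KO clones was higher by 1.63 ± 0.23 (adjusted p = 0.00017), a call that held under every alternative.

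Its α partners are the non-member genes *Itgal*, *Itgam*, *Itgax* and *Itgad*. *Itgax* had line means between 0.683 and 1.54 CPM, and the line means of *Itgal*, *Itgam* and *Itgad* were at most 0.596 CPM. The highest sample of these 3 genes was 1.41 CPM, for *Itgad* in *KEAP1* KO #3 replicate 3. Of the 5 leukocyte α chains, *Itgae* included, 3 passed the filter, and against LL2 WT limma called 0 of them, with 0 at an unadjusted p under 0.05. Of 9 leukocyte markers, *Cd68* was the only one above 1 CPM in every sample, *Adgre1* was at 0 throughout, and *Cd3e* was at or under 0.1 CPM. The summed level of these markers ranged from 3.12 to 5.38 CPM in LL2 WT, 5.84 to 10.4 in *KEAP1* KO #1, 9.73 to 23.1 in #2, 14.4 to 37.4 in #3 and 3.76 to 5.84 in *NRF2* KO, and their part in the level of *Itgb2* was not tested. Of the 3 tested markers, *Cd68* was called higher in #2 and #3 (13.8 and 22.0 CPM against 2.85 in LL2 WT) and *Lyz2* lower (0.0337 and 0.0366 against 1.13), while *Csf1r* was not called. In #1, 0 of the 3 were called in limma, where 2 had an unadjusted p under 0.05. These markers were named after their values were seen.

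**Figure D3:**
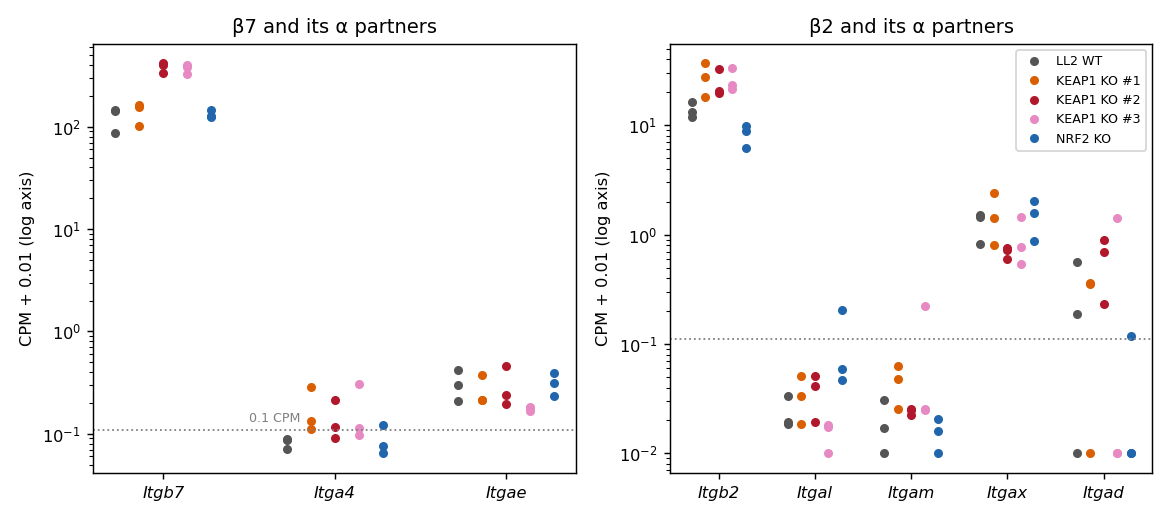
CPM of *Itgb7* and *Itgb2* and of the α chains they pair with, in each of the 15 samples, on a log axis with 0.01 added, and with the dotted line at 0.1 CPM. *Itgb7* lies above 87 CPM in every sample while *Itga4* and *Itgae* lie below 0.5 CPM.

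*Itgb8*, which with αv binds the latent form of TGF-β, went in opposite directions in 2 clones. Its CPM was 0.209, 0.332 and 0.560 in LL2 WT, 1.22, 0.937 and 1.16 in *KEAP1* KO #1, 0.0269, 0.0346 and 0.0826 in #2, 0.114, 0.127 and 0.229 in #3 and 0.404, 0.361 and 0.348 in *NRF2* KO. *KEAP1* KO #1 lay above all other samples and *KEAP1* KO #2 below all others. *KEAP1* KO #1 was higher than LL2 WT by 1.43 ± 0.34 (adjusted p = 0.00928) and higher than #3 by 2.25 ± 0.34 (adjusted p = 0.00113). *KEAP1* KO #2 was at least 3.67-fold lower than LL2 WT (adjusted p = 0.00319) and at least 11-fold lower than *KEAP1* KO #1 (adjusted p = 0.000127).

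*Itgb6*, the other chain that with αv binds latent TGF-β, did not pass the filter. It was at 0.152, 0.194 and 0.123 CPM in *KEAP1* KO #1 and at most 0.0413 CPM in every sample of the other 4 lines. With no filter it was called higher in *KEAP1* KO #1 than in LL2 WT (adjusted p = 0.00131), where all samples of LL2 WT lay under the floor. At a mean of 0.157 CPM in #1, the bound on the fold is under the fold threshold.

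*Itgb3*, the β chain of the vitronectin receptor αvβ3, was called lower in each *KEAP1* KO clone. Its CPM was 0.720, 0.510 and 1.41 in LL2 WT, 0.328, 0.187 and 0.347 in *KEAP1* KO #1, 0.235, 0.136 and 0.354 in #2, 0.216, 0.192 and 0.252 in #3 and 0.349, 0.357 and 0.557 in *NRF2* KO. The *KEAP1* KO samples did not overlap with those of LL2 WT and 1 of them, in #2, lay just above the lowest *NRF2* KO sample. The log2 difference from LL2 WT was -1.26 ± 0.39 (adjusted p = 0.0319) in #1, -1.46 ± 0.39 (adjusted p = 0.0114) in #2 and -1.51 ± 0.39 (adjusted p = 0.00958) in #3, and the call in #1 was lost when LL2 WT replicate 1 or 3 or any replicate of #1 was left out (adjusted p = 0.0507 to 0.132), and without the libraries numbered 3 (-1.01, adjusted p = 0.109). The call in #2 did not hold with either LL2 WT replicate 3 (-1.10, adjusted p = 0.0527) or replicate 2 of the clone itself (-1.22, adjusted p = 0.0564) left out. *Itgb3* differed between the *KEAP1* KO mean and *NRF2* KO by -0.58, which was not called.

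Among the α chains, *Itga2*, a collagen receptor chain, was higher in *KEAP1* KO #2 and #3. Its CPM was 0.0925, 0.238 and 0.541 in LL2 WT, 0.188, 0.184 and 0.698 in *KEAP1* KO #1, 1.01, 0.952 and 1.87 in #2, 0.901, 1.04 and 1.59 in #3 and 0.0549, 0.0828 and 0.280 in *NRF2* KO. *KEAP1* KO #2 and #3 lay above every sample of the other 3 lines. The log2 difference from LL2 WT was 1.93 ± 0.54 (adjusted p = 0.0159) in #2 and 1.84 ± 0.54 (adjusted p = 0.0202) in #3. Leaving out LL2 WT replicate 1 ended the calls (1.5 and 1.42, adjusted p = 0.072 and 0.0879), and so did leaving out replicate 3 of the clone (1.64 and 1.62, adjusted p = 0.0573 and 0.0614), but without all libraries numbered 3 they stayed, at 2.08 and 2.06 (adjusted p = 0.00478 and 0.005). The differences of *KEAP1* KO #1 from #2 and #3 were -1.71 and -1.63 and were not called (adjusted p = 0.0605 and 0.0694).

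*Itga5*, the fibronectin receptor chain, was at 29.9, 25.0 and 32.1 CPM in LL2 WT, 19.9, 21.9 and 26.1 in *KEAP1* KO #1, 48.7, 47.5 and 46.5 in #2, 39.2, 42.3 and 39.7 in #3 and 27.2, 23.8 and 33.7 in *NRF2* KO. *KEAP1* KO #2 and #3 lay above every other sample. Against LL2 WT the log2 differences of 0.72 in #2 and 0.48 in #3 (adjusted p = 0.00163 and 0.0168) did not reach the fold threshold, while *KEAP1* KO #1 differed from #2 by -1.07 ± 0.14 (adjusted p = 0.000322). That call fell just under the fold threshold without *KEAP1* KO #1 replicate 1 (-0.99).

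None of the laminin receptor chains α3, α6, α7 and β4 was called in the fit described above, but each was called under some alternatives. *Itga3* had means of 47.0 ± 3.46 CPM in LL2 WT, 25.0 ± 8.03, 39.9 ± 11.6 and 29.1 ± 8.84 in *KEAP1* KO #1, #2 and #3 and 52.2 ± 1.09 in *NRF2* KO. Its log2 differences from LL2 WT in #1 and #3 were -0.96 and -0.73 (adjusted p = 0.0177 and 0.0473), and without the libraries numbered 3 they were called at -1.21 and -1.02. In #1 *Itga3* was called in 6 of 18 alternatives, among them median-ratio rescaling and quantile normalization (-1.07 and -1.08). *Itga6* differed from LL2 WT by -1.12 in *KEAP1* KO #1 (adjusted p = 0.0524) and was called there in 6 of 18 alternatives. These were both of those scalings, the filter at a mean of 1 CPM, the replicate block, replicate 3 as a batch and the fit without LL2 WT replicate 2 (-1.12 to -1.45, adjusted p = 0.000221 to 0.0487). *Itga7*, a laminin receptor chain known from muscle, differed by -1.14 in #2 (adjusted p = 0.0627) and was called there in 5 of 18 alternatives. These were median-ratio rescaling, the replicate block, replicate 3 as a batch and the fits without replicate 3 of the clone or without all libraries numbered 3 (-1.14 to -1.52, adjusted p = 0.0018 to 0.0388). *Itgb4* differed from LL2 WT by -1.62 in *NRF2* KO, where all samples lay below LL2 WT, and was not called (unadjusted p = 0.00918, adjusted p = 0.254). In #3 *Itgb4* differed by -1.43 (adjusted p = 0.055) and was called there in 7 of 17 alternatives. These were a pseudocount of 0.5 CPM, both scalings, the replicate block, replicate 3 as a batch and the fits without LL2 WT replicate 2 or replicate 3 of the clone (-1.0 to -1.75, adjusted p = 0.0175 to 0.0497).

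**Figure D4:**
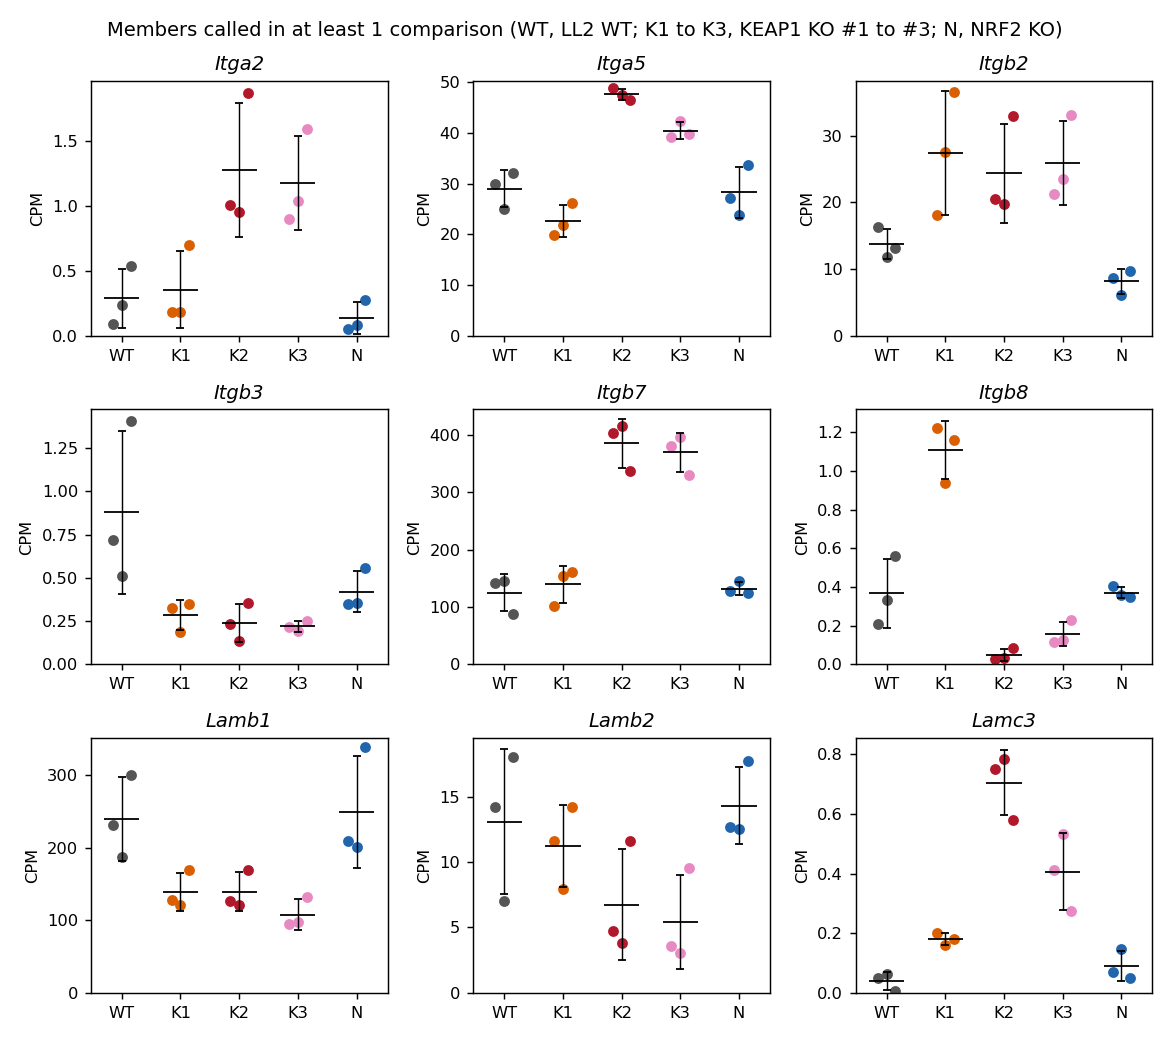
CPM of the 9 members called in at least 1 comparison, 1 point for each of the 3 samples of a line, with the line mean and SD in black. *Itgb7* and *Itga2* are higher in *KEAP1* KO #2 and #3 than in the other lines, and *Itgb8* is highest in #1 and lowest in #2.

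The other integrin chains were called in no comparison. *Itgb1* had line means between 259 and 307 CPM and a log2 difference of at most 0.15 from LL2 WT in size in the *KEAP1* KO clones. *Itgb5*, the second vitronectin receptor chain, had line means between 34.8 and 52.3 CPM, and *Itgav* between 32.3 and 52.9 CPM. *Itga1* ranged from 2.81 to 4.23 CPM, *Itga2b*, the platelet chain, from 2.03 to 3.28, *Itga10* from 0.755 to 1.43 and *Itga9*, a tenascin receptor chain, from 0.282 to 0.570. *Itga8* and *Itga11* did not pass the filter, with line means of at most 0.0582 and 0.0355 CPM. Of the exon bases of *Itga10*, 33.5% are shared with another annotated gene on the same strand, so its level is uncertain.

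On the ligand side, 1 laminin α chain was expressed. *Lama5*, the α chain of laminin-511 and laminin-521, had 57.5, 38.3 and 53.2 CPM in LL2 WT and means of 43.9 ± 13.5, 56.8 ± 22.5 and 50.9 ± 17.9 in *KEAP1* KO #1, #2 and #3 and 38.4 ± 9.97 in *NRF2* KO, and was called in no comparison. *Lama2*, *Lama3* and *Lama4* did not pass the filter, with line means of at most 0.0766, 0.0988 and 0.00418 CPM. *Lama1*, the embryonic α chain, did not pass it either, but was at 0.266, 0.0907 and 0.232 CPM in LL2 WT and at most 0.031 CPM in each of the 12 samples of the edited lines. With no filter it was called lower in all 4 edited lines (adjusted p = 0.000639, 0.000459 and 0.000299 in *KEAP1* KO #1, #2 and #3 and 0.0161 in *NRF2* KO), each of which lay under the floor. The LL2 WT mean was 0.196 CPM, with 1 sample under the floor too, so the bound on the fold is under the fold threshold.

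Of the β chains, *Lamb1*, which pairs with γ1 in laminin-511, was called lower in 1 of the *KEAP1* KO clones. Its CPM was 232, 187 and 301 in LL2 WT, 128, 121 and 169 in *KEAP1* KO #1, 127, 121 and 170 in #2, 95, 97.3 and 132 in #3 and 210, 201 and 339 in *NRF2* KO. All 9 *KEAP1* KO samples lay below every sample of LL2 WT and of *NRF2* KO. The log2 difference from LL2 WT was -1.14 ± 0.23 (adjusted p = 0.00246) in #3, which was called, and -0.77 in #1 and #2 (adjusted p = 0.0305 and 0.0226), which missed the fold threshold. The call in #3 fell under the fold threshold without LL2 WT replicate 3 (-0.96).

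*Lamb2*, the β chain of laminin-521, was at 14.2, 7.06 and 18.0 CPM in LL2 WT, 11.6, 7.91 and 14.2 in *KEAP1* KO #1, 4.76, 3.84 and 11.6 in #2, 3.56, 3.08 and 9.52 in #3 and 12.7, 12.5 and 17.7 in *NRF2* KO. The samples of #2 and #3 overlapped with those of LL2 WT through replicate 3. The log2 difference from LL2 WT was -1.35 ± 0.48 in #3 (adjusted p = 0.049), and the call was lost without LL2 WT replicate 1 or 3 or *KEAP1* KO #3 replicate 1 or 2 (adjusted p = 0.128 to 0.179). In #2 it was -1.02 and not called, although 5 of 18 alternatives called it, the replicate block among them (adjusted p = 0.00436), and without the libraries numbered 3 it was called in both, at -1.21 in #2 and -1.57 in #3 (adjusted p = 0.0162 and 0.00517). *Lamb3*, a β chain of epithelial basement membranes, had line means between 0.755 and 1.98 CPM and was not called.

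Both γ chains lay above LL2 WT in all 9 *KEAP1* KO samples. *Lamc1*, the common γ chain, was at 71.2, 59.2 and 76.9 CPM in LL2 WT, 108, 109 and 130 in *KEAP1* KO #1, 93.7, 90.9 and 111 in #2, 81.1, 81.9 and 98.7 in #3 and 54.5, 49.0 and 62.7 in *NRF2* KO. They also lay above *NRF2* KO. The log2 difference from LL2 WT was 0.74, 0.52 and 0.34 ± 0.13 in #1, #2 and #3 (adjusted p = 0.0017, 0.0106 and 0.0704), and that of the *KEAP1* KO mean from *NRF2* KO was 0.85 ± 0.11, all under the fold threshold.

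*Lamc3*, a γ chain found in few tissues, was low but was called higher in each *KEAP1* KO clone. Its CPM was 0.0505, 0.062 and 0.00762 in LL2 WT, 0.202, 0.162 and 0.182 in *KEAP1* KO #1, 0.752, 0.783 and 0.580 in #2, 0.413, 0.534 and 0.274 in #3 and 0.0715, 0.146 and 0.0511 in *NRF2* KO. The *KEAP1* KO samples also lay above those of *NRF2* KO, and #2 lay above all others. Since LL2 WT lay under the floor, the level was at least 1.82-fold higher in #1 (adjusted p = 0.0436), 7.05-fold in #2 (adjusted p = 0.000117) and 4.07-fold in #3 (adjusted p = 0.0012). The bound in #1 is under the fold threshold, so that call rests on values under the floor, and 11 of 17 alternatives lost it. The call in #1 was lost without any 1 replicate of LL2 WT but the second, and without any 1 replicate of #1 (adjusted p = 0.0755 to 0.134), as it was without the libraries numbered 3 (adjusted p = 0.165). Of the exon bases of *Lamc3*, 6.27% lie opposite another annotated gene, and the counting was not stated to use strand. *KEAP1* KO #1 differed from #2 by -1.51 ± 0.34 (adjusted p = 0.0127), a call lost without *KEAP1* KO #2 replicate 1 or 2 (adjusted p = 0.0579 and 0.0595).

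By the lowest chain, laminin-511 was limited by α5 in every line and lay between 11.8 and 17.4 CPM per kb, and laminin-521 lay at 11.1 ± 4.72 in LL2 WT, 9.54 ± 2.69, 5.71 ± 3.59 and 4.57 ± 3.04 in *KEAP1* KO #1, #2 and #3 and 11.6 ± 3.06 in *NRF2* KO. These levels depend on the length used. By the longest transcript, line means were 3.37 to 4.99 CPM per kb for *Lama5* and 0.957 to 2.54 for *Lamb2*. The chain limiting laminin-521 in *NRF2* KO was then β2 (2.54 against 3.37), where it was α5 by mean length.

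**Figure D5:**
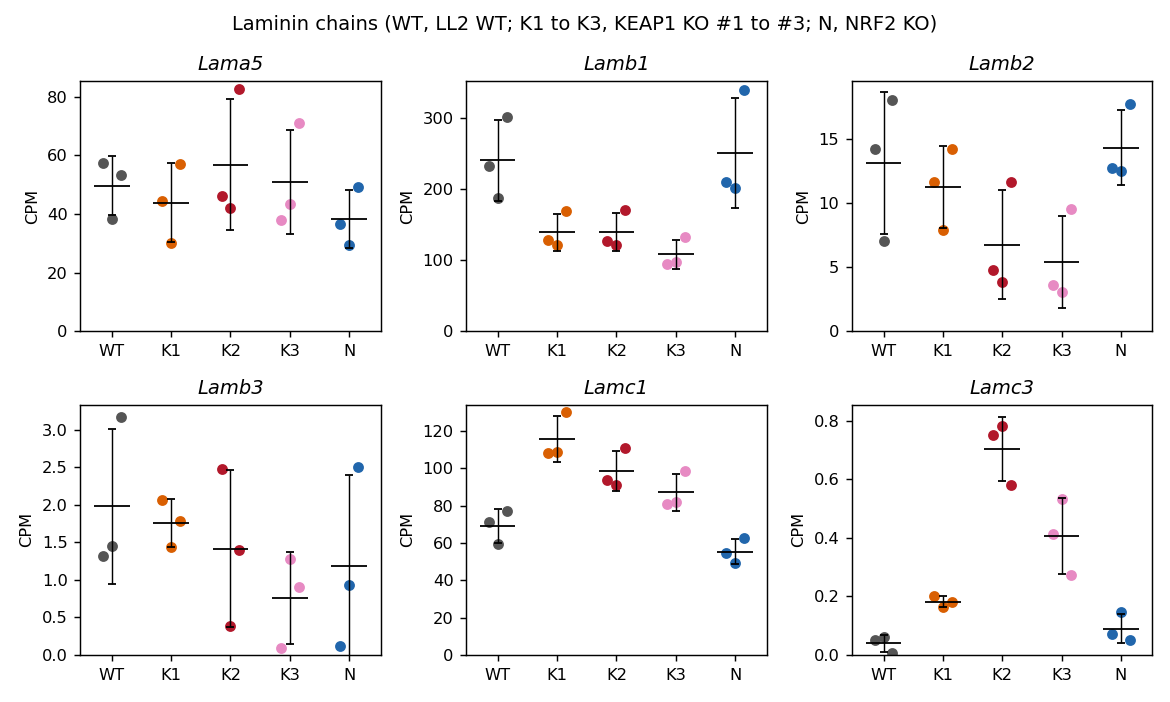
CPM of the 6 tested laminin chains, 1 point a sample, with the line mean and SD (bars end at 0). *Lama5* overlaps in all lines, and *Lamb1* is lower and *Lamc1* higher in all 9 *KEAP1* KO samples than in LL2 WT.

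Against *NRF2* KO, the mean of the *KEAP1* KO clones had 4 of the 23 members called higher, *Itga2*, *Itgb2*, *Itgb7* and *Lamc3*, where 5.19% of all tested genes were, and 0 called lower in limma, where 4.75% were. The log2 differences were 1.98 ± 0.44 for *Itga2* (adjusted p = 0.00494), 1.02 ± 0.16 for *Itgb7* (adjusted p = 0.000483) and 1.38 ± 0.28 for *Lamc3* (adjusted p = 0.00248). Of these, *Itga2* and *Lamc3* passed the filter only through *KEAP1* KO clones. The errors and p-values measure the spread between samples of a line, not that between clones. The samples of *Itga2* and *Itgb7* overlapped with those of *NRF2* KO through *KEAP1* KO #1. The call of *Itgb7* was lost in 6 of 24 alternatives and kept in 8 of 12 fits without 1 replicate, and *Itgb7* fell to 0.99 without the libraries numbered 3. Without those libraries 3 members were called lower, among them *Itga3* at -1.01. Over all 23 members, 11 had an unadjusted p under 0.05.

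Between clones, *KEAP1* KO #1 had 1 member called higher than #2, *Itgb8* (2.79% of all tested genes), and 3 called lower, *Itga5*, *Itgb7* and *Lamc3* (1.79%). Against #3 it had *Itgb8* called higher (2.60%) and *Itgb7* called lower (2.03%). *KEAP1* KO #3 and #2 had 0 members called in limma, 1 with an unadjusted p under 0.05, where 0.259% of all tested genes were called higher and 0.225% lower, and with the replicate numbers as a block, which pair these 2 clones, the count was 0 too.

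Among the other proteins that integrins bind, more were called lower than higher. Of 23 tested ligands other than laminins, 5 were called lower in *KEAP1* KO #1, 12 in #2 and 10 in #3, where 3.99%, 7.75% and 7.34% of all tested genes were. In the same order 1, 2 and 2 were called higher, where 4.55%, 5.94% and 6.09% of all tested genes were. They had a median log2 difference of 0.09, -1.21 and -0.61 (0.11, 0.03 and 0.02 over all tested genes), and 0 were called in *NRF2* KO in limma, where 2 had an unadjusted p under 0.05. Called lower in all 3 clones were *Tnc* (tenascin C), *Fbln1*, *Fbln5* and *Fbn1* (matrix fibre proteins) and *Vcam1*, the counter-receptor of α4β1. *Vcam1* went from 123 CPM in LL2 WT to 37.1, 10.6 and 8.33 in *KEAP1* KO #1, #2 and #3, and *Fbn1* from 19.1 to 5.69, 1.15 and 0.367. *Fn1*, fibronectin, named after its values were seen, was called lower in #2 and #3, with 14.3, 13.6 and 31.7 CPM in #2, 11.6, 12.6 and 44.5 in #3 and 223, 119 and 367 in LL2 WT. In #1, *Fn1* had a mean of 92.1 CPM and was not called against LL2 WT (log2 difference -1.26, adjusted p = 0.125). It was called higher in #1 than in #2 and #3 (2.27 and 2.25). The summed level of 7 fibroblast markers ranged from 318 to 584 CPM in LL2 WT, 11.7 to 29.9 in #1, 7.99 to 15.1 in #2, 2.59 to 5.02 in #3 and 183 to 422 in *NRF2* KO, and its part in these ligands was not tested. This sum is mostly *Col3a1*, at 436 CPM in LL2 WT and 12.4, 4.04 and 0.325 in the clones, and of the 6 tested markers 1 was called lower in #1, 4 in #2 and 5 in #3. *Pdgfrb* was called higher in #1, at 4.21 CPM against 0.697 in LL2 WT, and lower in #2 and #3. These 2 markers were named after their values were seen.

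Of 17 tested genes of the laminin network and other laminin receptors, 1 was called higher and 2 lower in *KEAP1* KO #1, and 1 higher and 3 lower in each of #2 and #3, against 4.55%, 5.94% and 6.09% of all tested genes called higher and 3.99%, 7.75% and 7.34% called lower. The ones called in all 3 clones were *Megf9*, a protein with laminin-like repeats, which was higher, and *Ntn1* (netrin 1) and *Sparc*, which were lower. *Ntn1* went from 25.1 CPM in LL2 WT to 3.76, 1.41 and 1.21. Of 35 tested focal adhesion adaptors and kinases, the proteins that tie integrins to the cytoskeleton, 0 were called in *KEAP1* KO #1 in limma, where 14 had an unadjusted p under 0.05, and 1 was called higher and 3 lower in each of #2 and #3, to be read against the same shares of all tested genes.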

How the data were processed

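RNA of 15 samples, 5 lines of LL2 with 3 biologic replicates each, was sequenced as poly(A) libraries. The authors deposited CPM per gene, which are kallisto's estimated counts after scaling to 1 library total. The submitters' notes give bcl2fastq 1.9.0 and GRCm39 and the methods give GRCm38.p6, so coordinates and lengths here are those of GENCODE M21 (GRCm38) and promoters those of RefSeq (GRCm38.p6). The CPM are fractional and reads could not be recovered from them, and no depth per sample is known. The floor of 0.1 CPM, about 3 reads at the average depth in the methods, covers counting error only.

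Genes summing to at least 3 CPM over the 15 samples (14652 of 35880) were fitted on the scale log2(CPM + 0.1) by limma 3.58.1 in R 4.3.3, with a mean per line, empirical Bayes with a trend and Benjamini-Hochberg adjustment over all genes tested. Calls had an adjusted p under 0.05 with a log2 difference beyond 1 in either direction. The fit was tested on simulated data. Members were named in full where called in any of the 8 comparisons. Partner genes were named where called in all 3 *KEAP1* KO clones or in *NRF2* KO. Members and lists were chosen with earlier results of these data known. Same-numbered samples of 2 lines all correlated above 0.1 (r of deviations from line means) for 2 of 10 line pairs, *KEAP1* KO #2 with #3 and *KEAP1* KO #3 with *NRF2* KO. Python 3.11.15 was used for tables. Alternatives were the pseudocount, the filter, the scaling, the samples fitted, the trend, the replicate number and each replicate left out. Some results are not reported here.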

Additional observations from a re-analysis of the deposited data

Results flagged for a closer look

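Results whose effect differed between lines in a test of the difference itself are listed here, all from limma. Against *NRF2* KO, the mean of the *KEAP1* KO clones was higher for *Itga2* by 1.98 on the log2 scale (adjusted p = 0.00494), for *Itgb2* by 1.63 (adjusted p = 0.00017), for *Itgb7* by 1.02 (adjusted p = 0.000483) and for *Lamc3* by 1.38 (adjusted p = 0.00248). For *Itga2* and *Itgb7* the samples of *KEAP1* KO #1 overlapped with *NRF2* KO, and the *Itgb7* call was lost in 6 of 24 alternatives. *Itga2* and *Lamc3* passed the filter only through *KEAP1* KO clones, so their calls are not independent of the filter.

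The *KEAP1* KO clones also differed from each other. *KEAP1* KO #1 differed from #2 by -1.07 for *Itga5* (adjusted p = 0.000322), by -1.49 for *Itgb7* (adjusted p = 0.000515), by -1.51 for *Lamc3* (adjusted p = 0.0127) and by a fitted 3.04 for *Itgb8* (adjusted p = 0.000127), for which #2 lay under the floor and at least 11-fold is the bound. *KEAP1* KO #1 differed from #3 by -1.43 for *Itgb7* (adjusted p = 0.000706) and by 2.25 for *Itgb8* (adjusted p = 0.00113). The filter was passed by *Itgb8* only through #1 and by *Lamc3* only through *KEAP1* KO clones. Their calls here are therefore not independent of it. *Keap1* itself was at 11.8 CPM in #1 and at 5.53 and 5.58 CPM in #2 and #3, and its part in these differences was not tested.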

How the results depend on the processing

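With a mean of at least 1 CPM as the filter, *Itga2*, *Itgb3*, *Itgb8* and *Lamc3* were not tested. All 24 calls of a member in a comparison kept their direction under every alternative that tested the gene. Of these calls, 14 held when each replicate of the lines compared was left out in turn, and 6 held under every alternative that tested the gene. The 6 were *Itgb7* in *KEAP1* KO #2 and #3 against LL2 WT and in #1 against #2 and #3, *Itgb2* against *NRF2* KO and *Itgb8* in #1 against #2. Of these genes, *Itgb8* passed the filter only through *KEAP1* KO #1, so its call is not independent of the filter. The number of members called in *KEAP1* KO #1 against LL2 WT (3) was 0 at a pseudocount of 0.5 or 1 CPM and with only the lines compared, 5 with no filter and 1 with a mean of at least 1 CPM. In #2 (5) it was 3 and 1 at those pseudocounts and 1 with a mean of at least 1 CPM, and in #3 (6) it was 2 at 1 CPM and 3 with that filter. In *NRF2* KO (0) it was 1 with no filter. For the *KEAP1* KO mean against *NRF2* KO (4) it was 2 at 1 CPM and 2 with that filter, for #1 against #2 (4) it was 2 with that filter, and for #1 against #3 (2) it was 1 at 1 CPM and with that filter and 4 with the replicate block, with replicate 3 as a batch and without the libraries numbered 3. Leaving out 1 replicate gave 1 to 4 members in *KEAP1* KO #1 against LL2 WT. A higher pseudocount shrinks the fold of genes near it, and the filters change the genes tested; the other causes were not tested. The number of integrin chains above 1 CPM per kb in LL2 WT was 10 by mean and 9 by longest transcript. Depth limits *Itgb6*, *Itgb8*, *Lama1* and *Lamc3*, whose groups lie at or under the floor.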
